A study of Mus musculus with 12 samples.

Results

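Growing oocytes that lacked both ZAR1 and ZAR2 were compared with wild-type (WT) growing oocytes across the whole transcript table. A growing oocyte is arrested in the first meiotic prophase inside its follicle and is still transcribing, so this is the stage at which the maternal mRNA store is built up. Growing oocytes of WT and Zar1/2-null females, 13.5 days old per the sample labels (the study's methods give a slightly younger age), were lysed in pools of 10 oocytes and sequenced by Smart-seq2, which copies full-length polyadenylated RNA into cDNA from an oligo-dT primer. There were 2 libraries of each genotype. Zar1/2-null mice carried CRISPR-Cas9 deletions in both genes at once, a small Zar1 deletion with a stop codon close to the start of translation and a frame-shifting deletion in the first exon of Zar2. The females were of a C57BL6 and ICR hybrid background, were not treated with hormones at this age, and their number per library is not given in the sources used here, so p-values measure the spread between libraries, which may be technical. The deletion is present in all tissues, granulosa cells included. Genes with 1 FPKM or more in at least 1 of the 4 growing libraries were kept, 11232 of 23230 genes in the table. Of these, 10634 are protein-coding in the annotation, and 64 are microRNA precursors (39, Mir symbols) or small nucleolar RNAs (25, Snor symbols), which are described apart. Of the 11998 genes left out, 5445 were listed at 0 in all 4 libraries. Close to the threshold, 190 genes kept had a highest value from 1 to 1.1 FPKM and 184 left out had one from 0.9 to 1 FPKM.

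ZAR1 and ZAR2 are oocyte proteins with a C-terminal zinc-finger domain that binds RNA. They are counted among the RNA-binding proteins that store maternal mRNAs and set when they are translated, together with factors such as MSY2 (Ybx2), CPEB1 and the poly(A)-binding proteins. mRNAs made during growth are kept for weeks, are translated or degraded after meiosis resumes, and are no longer replaced once the oocyte is fully grown.

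The values are FPKM (fragments per kilobase of transcript, scaled to the mapped fragments of the library) that the authors multiplied by a factor taken from the ERCC spike-in, a fixed amount of synthetic RNA put into every lysate. The factor was 1 in both WT libraries and 0.862 and 0.779 in the Zar1/2-null libraries, so every null value stands lower than its unscaled FPKM. Each WT growing library was the reference for the libraries of its replicate number, so its factor was 1 by construction. The paper lists unequal spike-in shares for these 2 WT libraries, and the spread between the WT replicates does not include that difference. Fewer lysed oocytes and less RNA per oocyte cannot be told apart by the factor. The depth estimated from the smallest steps of the values was 10400000 and 12400000 fragments for WT and 10600000 and 13000000 fragments for null libraries. Between 10128 and 10454 genes reached 1 FPKM in a library. The summed level of 11 oocyte markers was 15681 and 17008 FPKM in WT and 17155 and 15716 FPKM in null libraries, so the libraries carried the oocyte identity that their labels give. Markers of other ovarian cells were low. The 9 granulosa markers summed to 23.9 and 20.1 FPKM in WT and to 10.1 and 5.52 FPKM in null libraries, with Amh at 0 in all 4 libraries. The defining theca, immune and surface epithelium markers each summed to at most 3.19 FPKM in every library. Wider lists of such genes reached more. The 4 tested immune genes summed to 75.1 and 119 FPKM in WT and 6.04 and 4.79 FPKM in null libraries, and the 2 tested surface epithelium genes to 39.9 and 39.2 FPKM in WT and 31.7 and 19.3 FPKM in null libraries. The endothelial and red cell markers lay between 8.65 and 11.04 FPKM, almost all of it Pecam1, while Cdh5 and both globin genes were at 0.

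Zar2 appears in the table under its symbol Zar1l (mm9, chromosome 5, 151309630 to 151320739, minus strand). It had 639 and 644 FPKM in its WT libraries against 17.5 and 13.2 FPKM in its null libraries. This was a 41.9-fold lower mean (log2 fold change -5.31, adjusted p = 6.57e-09). Zar1 (chromosome 5, 72968353 to 72972323, minus strand) had 603 and 725 FPKM in its WT libraries against 407 and 459.9 FPKM in its null libraries, a log2 fold change of -0.61 (adjusted p = 0.0302). Without the ERCC scaling the Zar1 difference was -0.32 (adjusted p = 0.201), so its call rests on the scaling. The deletions remove small stretches of coding sequence, so a transcript can still be counted from a null allele and these FPKM values do not check the deletions themselves.

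More genes fell than rose in Zar1/2-null growing oocytes. The limma test on log2(FPKM + 1), with Benjamini-Hochberg adjustment over the 11232 genes and a threshold of 0.05, called 1256 genes higher (11.2%) and 2802 genes lower (24.9%). Unscaled, the split turned, to 1771 higher (15.8%) and 1429 lower (12.7%). Scaling each library on its median gene gave 1584 higher and 1410 lower. The median log2 fold change of all genes tested was -0.16 with the scaling, 0.09 without it and 0.07 with median scaling, and the values below are to be read against that shift. Counts of called list members below are likewise to be read against these shares of all genes tested. Of the called genes, 1230 were higher and 1429 lower both with and without the scaling. Most called changes were small. Setting Mir and Snor genes aside, the median called gene differed by a log2 fold change of 0.69 upward and -0.78 downward, and 251 genes called higher and 859 called lower differed by 1 or more on this scale.

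Large changes were rarer and went downward more often. With each group mean set to at least 1 FPKM, 113 genes (1.01%) were over 3-fold higher and 407 (3.62%) over 3-fold lower. The unscaled values gave 213 and 291. Without Mir and Snor genes the counts were 95 and 380, of which 93 and 377 also passed the limma test. In 94 and 377 of them both null libraries lay on one side of both WT libraries. Over all genes tested that order is common, with 22.8% of genes having both null libraries above and 47.5% having both below. Replicates of one genotype were rarely that far apart, since 14 genes in WT and 15 in null differed over 3-fold between the replicates, out of 11168. The smallest p of an exact permutation test of 2 against 2 libraries is 0.333, and the spread in the limma test was taken from all 12 libraries of the series. Without null replicate 2 limma called 828 genes higher and 1735 lower. Of the 185 genes called among the 211 chosen for naming, 47 did not pass without the ERCC scaling while keeping their direction. Genes described here whose call was lost in this way, other list members included, are Zar1, Kit, Nlrp9b, Obox1, Larp4, Atxn2l, Tdrkh, Atxn2, Lsm14a, Papola, Upf1, Msh4, Ccnb1, Wee2, Pttg1, Kif18a, Pnpla8, Soat1, Dppa3, Gtsf1, Folr4, Bnip3, Birc5, Bcl2l13, Laptm5, Snora47 and Snora30, all of which were lower.

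**Figure D1:**
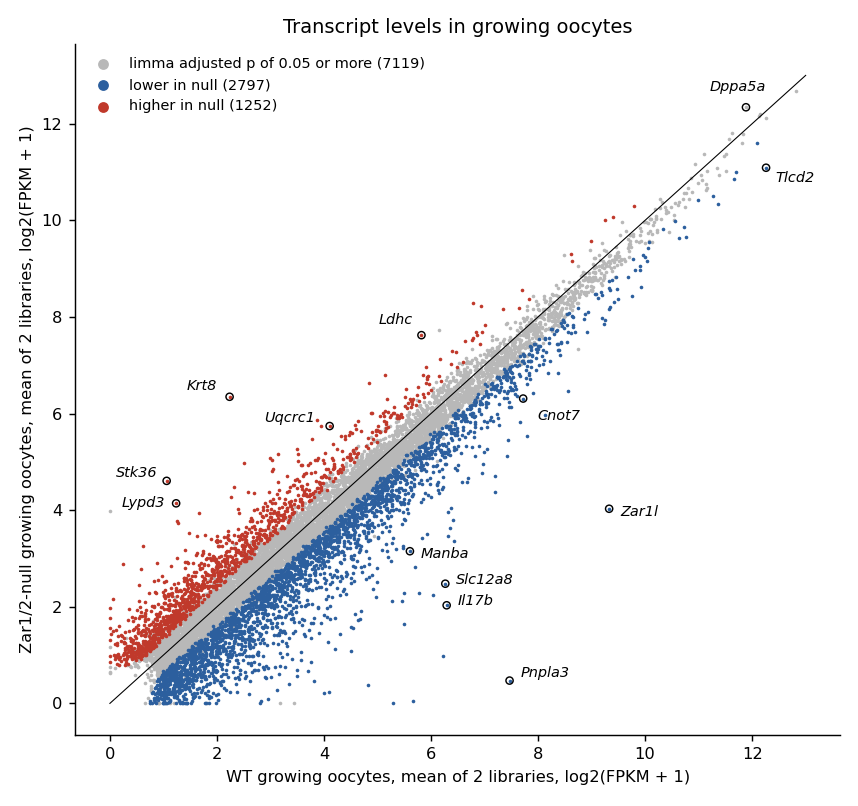
Level of each gene other than Mir and Snor genes in WT (x axis) and Zar1/2-null (y axis) growing oocytes, as log2(mean FPKM of 2 libraries + 1), with genes called lower in blue (2797) and higher in red (1252) and the line of equal levels drawn. The cloud of called genes is wider below the line, and Zar1l and Pnpla3 lie farthest from it among the circled genes.

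The 15 genes named for the largest fall had null libraries between 0 and 17.5 FPKM. Pnpla3, a patatin-like acylglycerol hydrolase of lipid droplets (chromosome 15, 83998246 to 84019942, plus strand), had 164 and 188 FPKM in its WT libraries against 0.358 and 0.416 FPKM in its null libraries. With the null mean set to 1 FPKM this is a 176-fold difference (log2 fold change -6.99, SE 0.38, adjusted p = 5.47e-07). Both null libraries lay under the 1 FPKM floor, while both WT libraries placed the gene well inside the expressed range. Defb48, a beta-defensin, had 34.7 and 41.2 FPKM in WT, with both null libraries listed at 0. Stk32a, a serine/threonine kinase, had 48.2 and 51.7 FPKM in its WT libraries against 0.0426 and 0.0315 FPKM in its null libraries (log2 fold change -5.62, adjusted p = 1.97e-09). H2-Aa, the alpha chain of an MHC class II molecule, had 53.3 and 94.1 FPKM in its WT libraries against 1.05 and 0.907 FPKM in its null libraries (log2 fold change -5.18, adjusted p = 1.53e-06). Il17b, a cytokine of the interleukin 17 family, had 77.3 and 77.4 FPKM in its WT libraries against 3.42 and 2.76 FPKM in its null libraries (log2 fold change -4.27, adjusted p = 6.21e-09), with WT libraries that were almost equal.

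Slc12a8, a member of the cation-chloride cotransporter family (chromosome 16, 33517414 to 33664221), fell from 79.6 and 72.4 to 5.09 and 4.05 FPKM (log2 fold change -3.79, adjusted p = 9.08e-07). Cmtm8, a small protein with a MARVEL membrane domain, fell from 61.5 and 68.3 to 4.67 and 2.74 FPKM (log2 fold change -3.84, adjusted p = 5.47e-07). Anxa5, the phosphatidylserine-binding annexin, fell from 49.1 and 36.9 to 3.69 and 3.06 FPKM (log2 fold change -3.32, adjusted p = 5.71e-07). In each of these genes the lower WT library was several times the higher null library. Tuba3b, an alpha-tubulin with close paralogs whose reads the counting could share, fell from 48.3 and 40.4 to 3.06 and 4.73 FPKM (log2 fold change -3.23, adjusted p = 1.75e-06), and its paralog Tuba3a had a log2 fold change of -0.89 (adjusted p = 0.0143). Epsti1, an interferon-inducible gene, fell from 53.1 and 54.7 to 5.68 and 2.09 FPKM (log2 fold change -3.60, adjusted p = 6.24e-06). Its null libraries differed more from each other than its WT libraries did.

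Srgn and C1qb are best known from blood cells. Srgn, the granule proteoglycan serglycin, had 16.9 and 15.3 FPKM in its WT libraries against 0.206 and 0.153 FPKM in its null libraries (log2 fold change -3.86, adjusted p = 1.53e-06), and C1qb, a chain of complement C1q, had 19.6 and 23.7 FPKM in its WT libraries against 1.77 and 0.458 FPKM in its null libraries (log2 fold change -3.49, adjusted p = 2.58e-06). The defining immune markers Ptprc, Cd14, C1qa and Tyrobp were at 0 in all 4 libraries, and the sum of the 7 defining markers, 1.28 and 0.498 FPKM in WT and 3.06 and 3.19 FPKM in null libraries, was almost all Cd68. Of the 4 tested genes of the wider immune list, H2-Aa, C1qb and Laptm5 fell and Cd68 rose. The part of RNA from immune cells in these differences was not tested. The other genes among the 15 lower genes named by size were 4930524B15Rik (log2 fold change -3.79, adjusted p = 5.47e-07) and Gm9513 (log2 fold change -3.39, adjusted p = 2.70e-05).

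The 15 genes named for the largest rise were led by Krt8, Stk36 and Lypd3. Krt8, the simple epithelial keratin (chromosome 15, 101827142 to 101834773, minus strand), had 3.84 and 3.59 FPKM in its WT libraries against 72.8 and 87.98 FPKM in its null libraries. This was 21.7-fold (log2 fold change 4.11, SE 0.31, adjusted p = 3.18e-06). Krt19, another simple epithelial keratin, was at 0 in all 4 libraries. Krt73, a hair follicle keratin, rose from 4.199 and 5.098 to 32.3 and 28.3 FPKM (log2 fold change 2.47, adjusted p = 1.01e-06). Stk36, a kinase needed for motile cilia (chromosome 1, 74648019 to 74683468, plus strand), rose from 1.04 and 1.13 to 16.1 and 30.7 FPKM (log2 fold change 3.48, adjusted p = 3.15e-06). The WT libraries of Stk36 were barely above the 1 FPKM threshold. Lypd3, a GPI-anchored surface protein, rose from 1.06 and 1.65 to 14.3 and 18.99 FPKM (log2 fold change 2.90, adjusted p = 1.07e-06).

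Ldhc, the germ cell lactate dehydrogenase (chromosome 7, 54116573 to 54133512), reached the highest level of the 15. It had 61.8 and 49.3 FPKM in its WT libraries against 208 and 184 FPKM in its null libraries (log2 fold change 1.81, adjusted p = 1.24e-05). Ldhb, the lactate dehydrogenase subunit that dominates in oocytes, had 4491 and 4630.4 FPKM in its WT libraries against 4992 and 4431 FPKM in its null libraries and did not pass the test (adjusted p = 0.867). Tbpl1, a TBP-related transcription factor known for its role in spermatid development, rose from 4.37 and 3.56 to 23.9 and 18.8 FPKM (log2 fold change 2.17, adjusted p = 1.17e-05). Ublcp1, a phosphatase of the nuclear proteasome, rose from 28.1 and 26.9 to 102 and 94.8 FPKM (log2 fold change 1.80, adjusted p = 1.93e-04). Its WT replicates lay close together, and so did its null replicates. The remaining higher genes were Nhedc2, a sodium/hydrogen exchanger (log2 fold change 2.49, adjusted p = 3.23e-06), Ifi27l2a, an interferon-inducible gene (log2 fold change 2.48, adjusted p = 3.78e-06), Cd177, a surface protein of neutrophils (log2 fold change 2.02, adjusted p = 2.82e-05), Akr1c21, a hydroxysteroid dehydrogenase (log2 fold change 1.97, adjusted p = 9.05e-05), Snapc2, a subunit of the small nuclear RNA activating complex (log2 fold change 2.01, adjusted p = 2.99e-05), Vrk3, a vaccinia-related kinase (log2 fold change 2.01, adjusted p = 6.65e-05), Ng23 (log2 fold change 2.14, adjusted p = 6.15e-05) and 4930550L24Rik (log2 fold change 2.04, adjusted p = 9.50e-05). All 30 genes named by size kept their direction and an adjusted p of at most 0.00715 under every alternative run. They were chosen for large, called and separated differences in these same libraries, so this outcome was largely set by the choice.

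**Figure D2:**
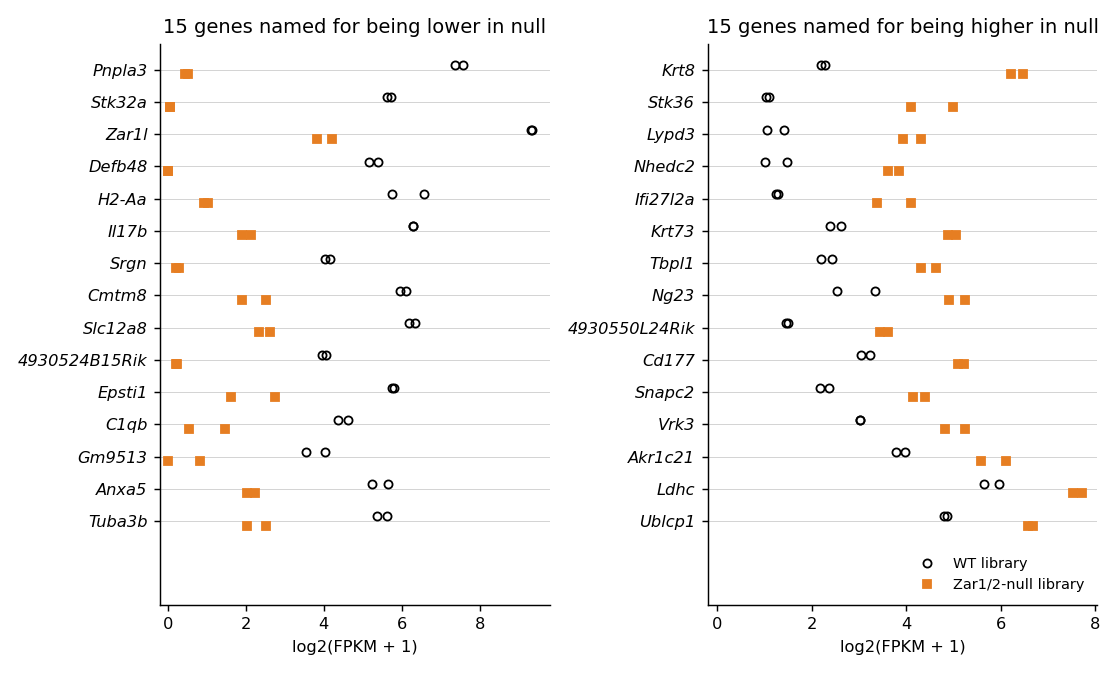
Level in each library, log2(FPKM + 1), of the 15 genes named for the largest fall (left) and the 15 for the largest rise (right), with WT libraries as open circles and Zar1/2-null libraries as filled squares. In every gene shown the null libraries lie on one side of the WT libraries, as the choice of genes required.

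The start-site regions of 4 strongly changed genes are shown because the amount of a transcript in a growing oocyte depends on its transcription as well as its stability. The targeted genes were left out, and Stk32a, which fell more than Defb48, is not shown. Each is 300 bases from RefSeq, GRCm38.p6, 250 bases before to 50 after the start, 5′ to 3′ on the gene's strand, with matches to the E-box CANNTG (read by FIGLA and related factors), the homeobox motif TAATTG (close to that of NOBOX) and the TATA box TATAAA in capitals. All motifs were searched on both strands, and overlapping matches are drawn as 1 run. Pnpla3 and Defb48 fell, and Krt8 and Stk36 rose. The windows are chr15:84167566-84167865 (plus) for Pnpla3, chr14:62984461-62984760 (minus) for Defb48, chr15:102004293-102004592 (minus) for Krt8 and chr1:74601205-74601504 (plus) for Stk36.
Pnpla3: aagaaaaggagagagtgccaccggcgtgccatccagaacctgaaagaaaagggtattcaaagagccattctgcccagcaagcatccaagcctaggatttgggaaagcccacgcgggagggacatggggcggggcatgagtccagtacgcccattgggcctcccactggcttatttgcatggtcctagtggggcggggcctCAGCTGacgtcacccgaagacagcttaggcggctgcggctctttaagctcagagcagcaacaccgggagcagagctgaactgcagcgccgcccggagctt
Defb48: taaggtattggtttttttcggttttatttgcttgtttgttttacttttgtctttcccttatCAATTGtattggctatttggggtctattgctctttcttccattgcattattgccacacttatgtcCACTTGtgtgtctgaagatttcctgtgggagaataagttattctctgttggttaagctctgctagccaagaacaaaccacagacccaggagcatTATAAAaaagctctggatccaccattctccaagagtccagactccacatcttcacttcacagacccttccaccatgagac
Krt8: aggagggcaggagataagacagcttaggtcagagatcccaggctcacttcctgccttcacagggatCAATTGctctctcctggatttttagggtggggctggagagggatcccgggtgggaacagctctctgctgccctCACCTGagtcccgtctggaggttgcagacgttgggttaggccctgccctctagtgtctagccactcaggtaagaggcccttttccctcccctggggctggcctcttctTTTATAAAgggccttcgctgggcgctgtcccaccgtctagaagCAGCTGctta
Stk36: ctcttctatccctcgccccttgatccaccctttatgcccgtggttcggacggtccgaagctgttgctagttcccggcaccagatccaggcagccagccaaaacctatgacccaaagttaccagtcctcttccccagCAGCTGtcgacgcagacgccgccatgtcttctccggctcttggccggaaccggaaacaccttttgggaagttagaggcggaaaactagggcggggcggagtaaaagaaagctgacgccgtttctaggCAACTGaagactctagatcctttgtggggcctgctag
The 4 windows held 1, 2, 3 and 2 matches to CANNTG in that order, and no match to TAATTG. Only the Defb48 and Krt8 windows had TATAAA. Of 27025 promoters 72.1% held CANNTG, and of the 8000 tested genes with a promoter 63.9% did, against 76.2% of 248 genes over 3-fold lower and called and 72.9% of 59 over 3-fold higher and called. TATAAA was in 14.2% of all promoters and 7.61% of those of tested genes, against 13.3% of the lower and 11.9% of the higher group. TAATTG was in 8.15%, 5.26%, 8.06% and 10.2% in that order. In the higher group these shares rest on only 7 promoters with TATAAA and 6 with TAATTG, and in the lower group on 33 and 20. Both groups of large changes stood above the tested genes in all 3 motifs and close to the level of all promoters, and these differences were not tested.

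The genes for which oocytes are best known were called in both directions. Of 13 genes of the zona pellucida and the oocyte-secreted factors, 1 rose and 2 fell, with a median log2 fold change of -0.36, below the -0.16 of all genes. The zona genes Zp1, Zp2 and Zp3 did not pass the test, although Zp2 and Zp3 passed as higher without the ERCC scaling (log2 fold changes 0.40 and 0.48). Zp3, the sperm-binding coat protein, had 2950.0 and 3331 FPKM in its WT libraries against 3662 and 3508 FPKM in its null libraries (adjusted p = 0.478), and Gdf9, the growth factor that drives follicle growth, had 3267 and 4007 FPKM in its WT libraries against 3695 and 3378 FPKM in its null libraries (adjusted p = 0.907). Bmp15, its partner, had 1714 and 1733 FPKM in its WT libraries against 1347 and 1125 FPKM in its null libraries (adjusted p = 0.0629). Fgf8, a signal from the oocyte to cumulus cells, rose from 100.1 and 115 to 188 and 178 FPKM (log2 fold change 0.77, adjusted p = 0.00723). Kit, the receptor for granulosa-derived KIT ligand, fell from 75.7 and 77.8 to 42.5 and 50.6 FPKM (log2 fold change -0.71, adjusted p = 0.00813). The other gene that fell was Gm97, an oocyte-secreted protein gene. It had 2975 and 2310.0 FPKM in its WT libraries against 1621 and 964 FPKM in its null libraries (log2 fold change -1.07, adjusted p = 0.0109), and its WT and null replicates were each further apart than those of Kit. Without the ERCC scaling 4 of the 13 rose and 1 fell.

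Of 14 genes of the subcortical maternal complex and the cytoplasmic lattices, the store-like structures under the oocyte cortex, 0 rose and 2 fell (Khdc1c, log2 fold change -1.18, adjusted p = 0.00323, and Nlrp9b, log2 fold change -0.63, adjusted p = 0.0257), with a median of -0.06 (1 and 1 unscaled). Nlrp5 (MATER) had 414 and 448 FPKM in its WT libraries against 482 and 574 FPKM in its null libraries (adjusted p = 0.219). Ooep and Padi6, which the lattices need, did not pass either (adjusted p = 0.153 and 0.394). Among 20 oocyte transcription factors 2 rose and 4 fell (5 and 3 unscaled). Yy1, a zinc-finger factor, rose from 4.49 and 4.03 to 10.8 and 11.6 FPKM (log2 fold change 1.22, adjusted p = 0.00109). The homeobox genes Obox2, Obox5 and Obox1, near-identical copies whose reads may be shared, fell by 0.88, 0.88 and 0.78 on the log2 scale. Figla and Nobox, which switch on the oocyte programme, did not pass (log2 fold changes 0.47 and 0.80, adjusted p = 0.143 and 0.0578).

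Among the most abundant transcripts of WT growing oocytes most did not pass the test. Gm15698 had 7113 and 7328 FPKM in its WT libraries against 6841 and 6341 FPKM in its null libraries and H1foo, the oocyte linker histone, had 4323 and 4656 FPKM in its WT libraries against 4814 and 4273 FPKM in its null libraries. Their adjusted p was 0.569 and 0.958. Tlcd2, a membrane protein with a TLC domain, fell from 4720.1 and 5088 to 2479 and 1874 FPKM (log2 fold change -1.18, adjusted p = 0.0274). Pttg1, the securin that inhibits separase, fell by 0.50 (adjusted p = 0.0368), and Dppa5a, a KH-domain RNA-binding protein, had 3947 and 3614 FPKM in its WT libraries against 5265 and 5103 FPKM in its null libraries (adjusted p = 0.0947).

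Factors that store, tail and degrade mRNA were called in both directions. Of 29 genes of mRNA storage and translational repression 4 rose and 5 fell, with a median of -0.02. The shares were 13.8% and 17.2%, against 11.2% and 24.9% of all genes tested. Pabpc1, the cytoplasmic poly(A)-binding protein of somatic cells, rose from 7.52 and 7.04 to 24.2 and 31.3 FPKM (log2 fold change 1.78, adjusted p = 2.85e-05). Ddx4, the germ cell RNA helicase VASA, rose from 76.7 and 66.01 to 146 and 133 FPKM (log2 fold change 0.96, adjusted p = 0.00426). Patl2, an oocyte repressor of translation, rose (log2 fold change 0.91, adjusted p = 0.00477), as did Larp1. The genes that fell were Larp4, Atxn2l, Tdrkh, Atxn2 and Lsm14a, and without the ERCC scaling 4 rose and 0 fell. Ybx2 (MSY2), an RNA-masking protein of oocytes, had 32.6 and 39.6 FPKM in its WT libraries against 39.3 and 51.95 FPKM in its null libraries (adjusted p = 0.272).

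Deadenylation and decay factors were called at shares near those of all genes. Of 35 tested, 5 rose and 10 fell (14.3% and 28.6%, against 11.2% and 24.9% of all genes tested, and 6 and 5 without the ERCC scaling), with a median of -0.30. Cnot7, a deadenylase of the CCR4-NOT complex, had 224 and 196 FPKM in its WT libraries against 89.03 and 67.7 FPKM in its null libraries (log2 fold change -1.42, adjusted p = 3.60e-04). Pan3 (log2 fold change -0.98, adjusted p = 0.00112) and Upf1 (log2 fold change -0.60, adjusted p = 0.0124), which act in poly(A) shortening and nonsense-mediated decay, also fell. Tob1, an adaptor of CCR4-NOT, rose (log2 fold change 1.01, adjusted p = 2.28e-04). Btg4, the adaptor through which maternal mRNAs are cleared at meiotic maturation, had 2429.7 and 2161 FPKM in its WT libraries against 1839 and 1427 FPKM in its null libraries (adjusted p = 0.0972). Of 14 genes of cytoplasmic polyadenylation and terminal uridylation 2 rose and 4 fell (14.3% and 28.6%, and 1 and 2 genes unscaled). Those that fell included the poly(A) polymerases Papola (log2 fold change -0.38, adjusted p = 0.0491) and Papolg (log2 fold change -0.91, adjusted p = 0.00501). Of 16 genes of the m6A mark on mRNA 3 rose and 5 fell (18.8% and 31.2%, and 3 and 1 genes without the scaling). The m6A readers moved apart. Ythdf3 fell from 59.6 and 52.9 to 21.8 and 22.8 FPKM (log2 fold change -1.30, adjusted p = 1.71e-04) and Ythdf2 rose from 47.6 and 45.6 to 76.5 and 70.1 FPKM (log2 fold change 0.64, adjusted p = 0.00674).

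Genes of meiotic recombination were called in 1 direction. Of 24 genes of recombination and synapsis 8 fell and 0 rose (33.3% lower, against 24.9% of all genes tested), and 6 of them fell also without the ERCC scaling. Their median GC content was 44.5%, against 49.8% over all genes tested. In the fifth of all genes by GC content that holds this value, 31.5% fell and 8.32% rose. After a correction for GC content 8 fell and 0 rose. The part of base composition in this count was not tested. These genes act in the fetal ovary, before the oocyte starts to grow. Mei4, needed to make meiotic double-strand breaks, had 11.2 and 12.9 FPKM in its WT libraries against 0.583 and 0.608 FPKM in its null libraries (log2 fold change -3.03, adjusted p = 1.17e-05). Tex11, a crossover factor, had 13.05 and 11.2 FPKM in its WT libraries against 2.43 and 1.302 FPKM in its null libraries (log2 fold change -2.22, adjusted p = 6.51e-05), and Hormad1, a chromosome axis protein, had 58.7 and 32.7 FPKM in its WT libraries against 22.6 and 7.93 FPKM in its null libraries (log2 fold change -1.63, adjusted p = 0.00534). Others that fell were Ccdc79, Sycp1, Tex12 and Msh4.

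Of 47 genes of cyclin B-CDK1, MOS and the anaphase-promoting complex 3 rose and 9 fell (5 and 3 without the ERCC scaling). The shares were 6.38% and 19.1%, against 11.2% and 24.9% of all genes tested. Ccnb3, the cyclin that oocytes need to leave metaphase I, had 28.2 and 28.03 FPKM in its WT libraries against 10.6 and 8.24 FPKM in its null libraries (log2 fold change -1.49, adjusted p = 2.72e-04). Ccnb1, cyclin B1, had 1056 and 1073 FPKM in its WT libraries against 802 and 568 FPKM in its null libraries (log2 fold change -0.66, adjusted p = 0.0309), and Mos, the kinase that holds metaphase II, did not pass (log2 fold change 0.33, adjusted p = 0.1696). Wee1, a CDK1-inhibiting kinase, rose from 7.56 and 7.95 to 18.2 and 20.2 FPKM (log2 fold change 1.20, adjusted p = 2.94e-04), while its oocyte-specific relative Wee2 fell. Of 57 genes of the spindle, centromere and cohesin 1 rose and 16 fell, with a median of -0.29, but without the scaling 4 rose and 2 fell. The 28.1% that fell was near the 24.9% of all genes tested, and the 1.75% that rose was below the 11.2%. Aurkc, the germ cell Aurora kinase, had 129 and 172 FPKM in its WT libraries against 57.2 and 61.1 FPKM in its null libraries (log2 fold change -1.32, adjusted p = 2.83e-04). Aurkb, its somatic counterpart, was the single gene of the list that rose (log2 fold change 0.80, adjusted p = 0.007899). Kif18a, a kinesin that shortens spindle microtubules, fell (log2 fold change -0.75, adjusted p = 0.0141).

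Lipid genes fell in the largest share of any list of 10 or more tested genes. Of 20 genes of lipid droplets and acylglycerol turnover 8 fell and 1 rose (40% lower, against 24.9% of all genes tested), and 6 fell and 3 rose without the ERCC scaling, where 12.7% of all genes fell. Besides Pnpla3, Acadm, the medium-chain acyl-CoA dehydrogenase of fatty acid oxidation, had 24.2 and 24.5 FPKM in its WT libraries against 7.62 and 8.604 FPKM in its null libraries (log2 fold change -1.48, adjusted p = 2.45e-04). Plin3, a lipid droplet coat protein, had 13.1 and 17.7 FPKM in its WT libraries against 8.99 and 6.94 FPKM in its null libraries (log2 fold change -0.87, adjusted p = 0.00304). Acadl, Fitm2, Plin2, Pnpla8 and Soat1 were the other members that fell, and Agpat3, an acyltransferase of phospholipid synthesis, rose.

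Cholesterol synthesis moved both ways, with 5 of 23 genes higher and 7 lower, and 5 higher and 4 lower without the scaling. Idi1, the isopentenyl diphosphate isomerase, fell (log2 fold change -1.17, adjusted p = 0.00503), and Fdps, which makes farnesyl diphosphate one step later, rose (log2 fold change 1.05, adjusted p = 0.00303). Consecutive steps of one pathway thus differed in direction.

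Few genes of the housekeeping machinery passed the test. Of 82 cytoplasmic ribosomal protein genes 3 rose and 3 fell (3.66% each), and of 77 subunits of oxidative phosphorylation 2 rose (2.6%) and 6 fell (7.79%). Without the ERCC scaling these were 10 and 0, and 8 and 0. Among 77 mitochondrial ribosomal proteins 4 rose (5.19%) and 12 fell (15.6%), or 8 and 4 unscaled. Of all genes tested 11.2% rose and 24.9% fell. Abundant genes were called less often, with 3.45% higher and 20.1% lower in the top of 5 equal groups by mean FPKM. Single members went far beyond their list. Uqcrc1, a core subunit of respiratory complex III, had 16.6 and 15.8 FPKM in its WT libraries against 47.6 and 57.4 FPKM in its null libraries (log2 fold change 1.63, adjusted p = 6.15e-05). Psmb5, a catalytic subunit of the proteasome, had 120.1 and 123 FPKM in its WT libraries against 309 and 286 FPKM in its null libraries (log2 fold change 1.28, adjusted p = 3.04e-04), in a list of 42 of which 3 rose and 2 fell (5 and 1 unscaled). Cct6a, a subunit of the cytosolic chaperonin, had 11.2 and 9.51 FPKM in its WT libraries against 34.4 and 34.8 FPKM in its null libraries (log2 fold change 1.65, adjusted p = 2.45e-05), in a list of 29 chaperones of which 3 rose and 1 fell (6 and 0 unscaled). Gapdh, a glycolytic enzyme often used as a reference gene, had 55.8 and 56.9 FPKM in its WT libraries against 108 and 113 FPKM in its null libraries (log2 fold change 0.96, adjusted p = 3.64e-04). Actb, beta-actin, another reference gene, had 91.2 and 75.9 FPKM in its WT libraries against 104 and 100.4 FPKM in its null libraries (adjusted p = 0.243). In glycolysis 2 of 13 genes rose and 1 fell, and in pyruvate oxidation and the TCA cycle 2 of 26 rose and 1 fell, Pdhx (log2 fold change -1.51, adjusted p = 1.71e-04), a subunit of pyruvate dehydrogenase. Translation factors and tRNA synthetases gave even counts, at 4 higher and 4 lower of 43 initiation factors, 1 and 1 of 16 elongation factors, and 4 and 4 of 34 synthetases. These splits also rested on the scaling, since unscaled they were 7 and 1, 2 and 0, and 9 and 1.

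The unfolded protein response had the highest median of the lists, and the death genes the highest share of risers. For 31 genes of the unfolded protein response 4 rose and 3 fell with a median of 0.10 (9 and 3 without the ERCC scaling). Dnajc3, an ER co-chaperone that restrains PERK, changed by -0.78 (adjusted p = 0.00305). Of 25 genes of the BCL2 family and caspases 7 rose and 4 fell (8 and 1 without the scaling), 28% higher against 11.2% of all genes tested. Bik, a BH3-only death inducer, rose from 15.4 and 13.4 to 60.7 and 45.04 FPKM (log2 fold change 1.80, adjusted p = 2.31e-05). Diablo, which releases caspases from their inhibitors, rose too (log2 fold change 0.46, adjusted p = 0.0185), as did Casp6, Casp9 and Bad, and also Bcl2l2, a survival factor. Those that fell were Bok, Bnip3, Birc5 and Bcl2l13, which include death and survival factors alike. Mdm4, an inhibitor of p53, had 753 and 681 FPKM in its WT libraries against 388 and 273 FPKM in its null libraries (log2 fold change -1.13, adjusted p = 0.00252), in a list of 37 damage and p53 genes of which 3 rose and 6 fell (5 and 2 unscaled). Of 29 antioxidant enzymes 2 rose and 3 fell (4 and 2 unscaled).

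Lysosomal genes fell in 14 of 42 and rose in 4 (33.3% lower and 9.52% higher, against 24.9% and 11.2% of all genes tested). Without the ERCC scaling 5 of the 42 fell and 5 rose, where 12.7% of all genes tested fell and 15.8% rose. The larger lower share of this list thus rested on the scaling. Manba, the beta-mannosidase, had 44.9 and 50.5 FPKM in its WT libraries against 11.2 and 4.51 FPKM in its null libraries (log2 fold change -2.57, adjusted p = 6.77e-05), with its null libraries further apart than its WT libraries. Ppt1 (log2 fold change -0.88, adjusted p = 0.00847) and Lgmn (log2 fold change -0.87, adjusted p = 0.00282), a lysosomal thioesterase and a protease, fell as well, while Ctsb (cathepsin B, log2 fold change 0.69, adjusted p = 0.0163) rose. Of 31 autophagy genes 6 fell and 1 rose (19.4% and 3.23%, and 4 and 4 genes unscaled). The one that rose was Sqstm1 (log2 fold change 1.13, adjusted p = 0.00601), the cargo receptor p62 that is itself consumed by autophagy.

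Chromatin and small RNA factors changed gene by gene. Of 25 genes of DNA methylation and imprint protection 4 rose and 2 fell (6 and 0 unscaled). Dppa3 (STELLA), which guards maternal methylation, had 3418 and 3258 FPKM in its WT libraries against 2186 and 1911 FPKM in its null libraries (log2 fold change -0.71, adjusted p = 0.0193). Kdm1b and Setd2, which demethylate H3K4 and methylate H3K36 so that oocyte DNA methylation can be laid down, both rose (log2 fold change 0.81, adjusted p = 0.00206, and log2 fold change 0.96, adjusted p = 0.00307). Of 41 Polycomb and chromatin remodelling genes 4 rose and 7 fell (7 and 3 unscaled). Ezh2, the H3K27 methyltransferase, had 212 and 229.5 FPKM in its WT libraries against 123 and 128 FPKM in its null libraries (log2 fold change -0.81, adjusted p = 0.00135), and Rnf2 and Bmi1 of the other Polycomb complex fell by 0.90 and 0.85 on the log2 scale. Of 32 histone and chaperone genes 4 rose and 2 fell (6 and 1 unscaled). In the small RNA pathways 7 of 29 genes rose and 6 fell (8 and 3 without the scaling). Dicer1, which makes microRNAs and the endo-siRNAs that oocytes depend on, had 44.6 and 38.3 FPKM in its WT libraries against 18.4 and 18.3 FPKM in its null libraries (log2 fold change -1.13, adjusted p = 1.99e-04). Gtsf1, a piRNA pathway factor, had 1091 and 1067 FPKM in its WT libraries against 788 and 702 FPKM in its null libraries (log2 fold change -0.54, adjusted p = 0.0337). The germline genes Piwil2, Pld6, Tdrd9 and Gpat2 rose and Piwil1 fell.

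Of 18 egg activation and fertilization genes 4 rose and 5 fell (5 and 2 unscaled), and Itpr2, a calcium release channel, had 8.97 and 10.3 FPKM in its WT libraries against 23.7 and 20.04 FPKM in its null libraries (log2 fold change 1.1, adjusted p = 2.94e-04). Folr4 (JUNO), the sperm receptor of the egg, changed by -0.61 (adjusted p = 0.0183). Of 35 cytoskeletal genes 4 rose and 5 fell (8 and 3 unscaled), and Spire1, an actin nucleator for asymmetric division, was among those that fell (log2 fold change -1.61, adjusted p = 1.33e-05). Of 14 cAMP and prophase arrest genes 1 rose and 3 fell (1 and 1 unscaled), and of 46 kinesins and dyneins 6 rose and 11 fell (8 and 3 unscaled). For 51 spliceosome genes 3 rose and 12 fell (5 and 3 unscaled), for 35 RNA polymerase genes 2 rose and 6 fell (4 and 3 unscaled), and for 49 nuclear pore and importin genes 3 rose and 8 fell (5 and 1 unscaled). The lower shares of the kinesin and dynein (23.9%) and spliceosome (23.5%) lists were near the 24.9% of all genes tested, of which 11.2% rose.

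**Figure D3:**
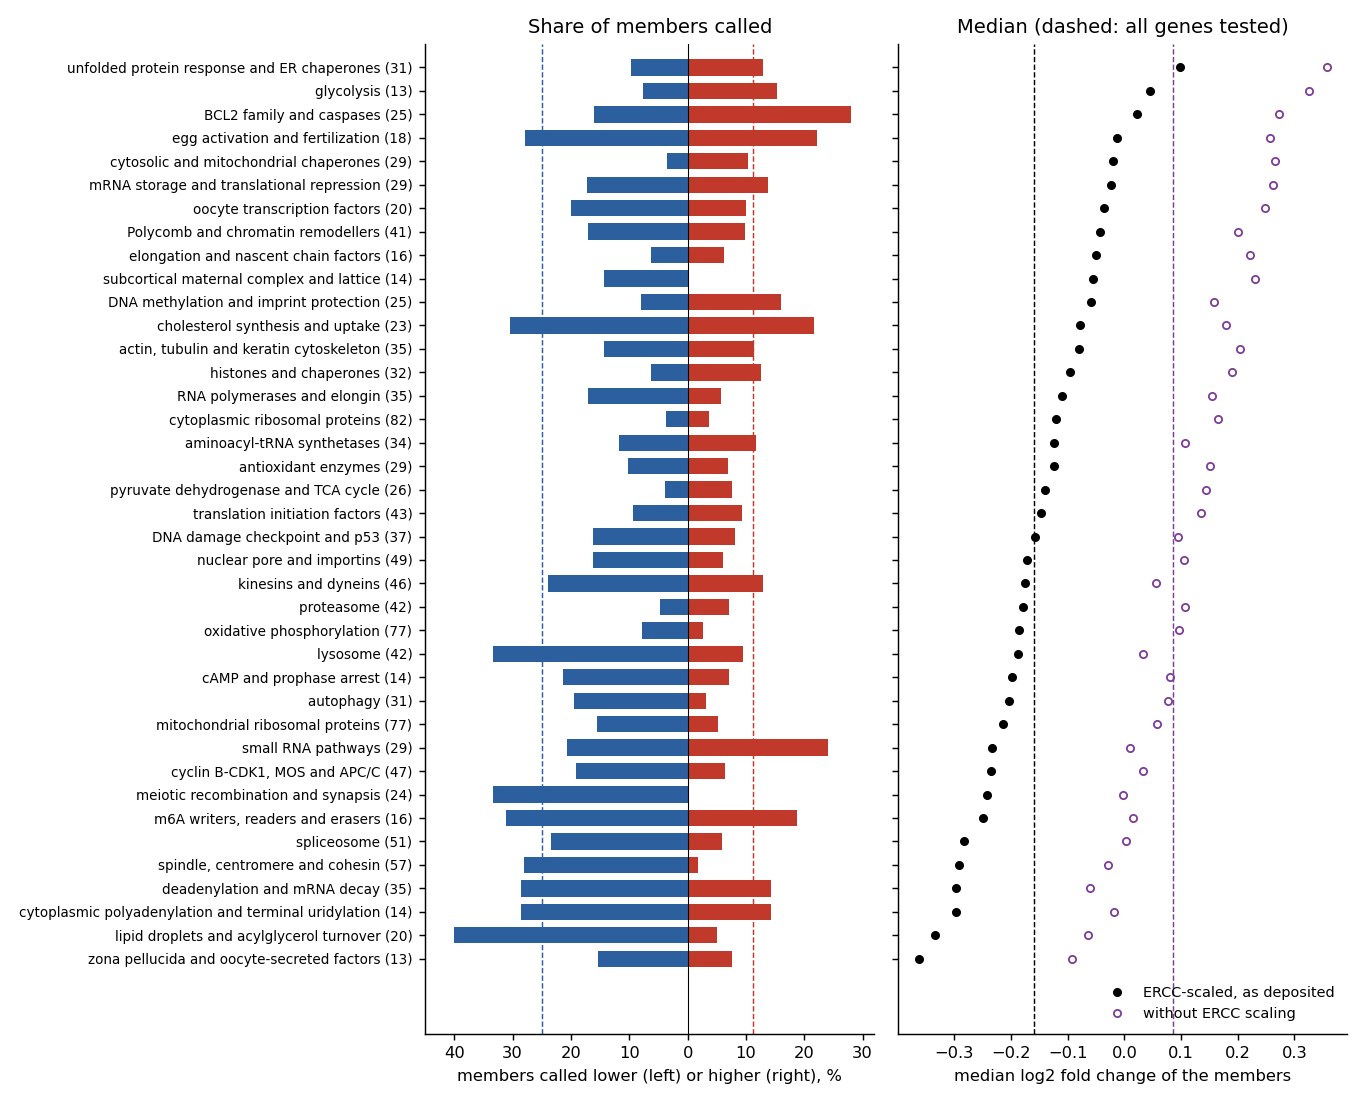
For each gene list with 13 or more tested members, all but those of other cell types, the share of members called higher (red, right) or lower (blue, left) in Zar1/2-null growing oocytes in percent (left panel), and the median log2 fold change with the deposited ERCC scaling (filled) and without it (open; right panel), with dashed lines for all genes tested. Lipid droplet, lysosome and meiotic recombination genes reach the largest lower shares and the BCL2 family and caspases the largest higher share, and every median is higher without the scaling.

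Genes best known from granulosa cells, which touch the oocyte and can adhere to it, were mostly lower among the few that were expressed. Of a list of 24 such genes 9 reached 1 FPKM, and of these 5 fell and 1 rose (4 and 2 unscaled). The shares were 55.6% and 11.1%, against 24.9% and 11.2% of all genes tested. Of the 9 defining markers, Amh was at 0 and Foxl2, Amhr2, Inhba, Nr5a1 and Wt1 had at most 0.269 FPKM. Only Fshr, Inha and Cyp19a1 reached 1 FPKM. Cyp19a1, the aromatase of granulosa cells, had 19.04 and 16.7 FPKM in its WT libraries against 7.72 and 2.53 FPKM in its null libraries (log2 fold change -1.76, adjusted p = 0.00117), and Esr2, the oestrogen receptor of granulosa cells, had 42.5 and 45.6 FPKM in its WT libraries against 19.4 and 13.6 FPKM in its null libraries (log2 fold change -1.38, adjusted p = 2.03e-04). The gene that rose was Nr5a2. Whether the reads of these genes came from granulosa cells or from the oocyte was not tested, nor was the part of granulosa RNA in the other differences. Of 4 tested immune genes 3 fell and 1 rose, of 2 endothelial genes 1 fell and 0 rose, of 2 surface epithelium genes 0 rose and 0 fell, and 0 of the theca and stroma genes reached 1 FPKM.

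Base composition moved with the call. Over the 10580 tested genes with a coding transcript in the annotation, split into 5 equal groups by GC content, the median log2 fold change rose from -0.34 in the lowest group to 0.11 in the highest, with 37.4% and 10.2% of genes called lower and 7.51% and 20% called higher. Replicates of one genotype differed in the same direction over a narrower range, with a median difference from -0.11 to 0.16 between the WT replicates and from -0.20 to 0.12 between the null replicates. With this trend smoothed out of every library the counts were 1082 higher and 2985 lower, and 100 and 407 over 3-fold. The part of base composition in the differences of single genes was not tested. The last 100 bases of the 3′ end held TTTTAT or TTTTAAT, elements for cytoplasmic polyadenylation searched on the transcript strand, in 20% of 9625 tested genes, in 24.2% of genes called lower and in 16.9% of genes called higher. The median GC content of those bases was 35%, 33% and 37%, so the AT-rich element and the base composition went together.

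**Figure D4:**
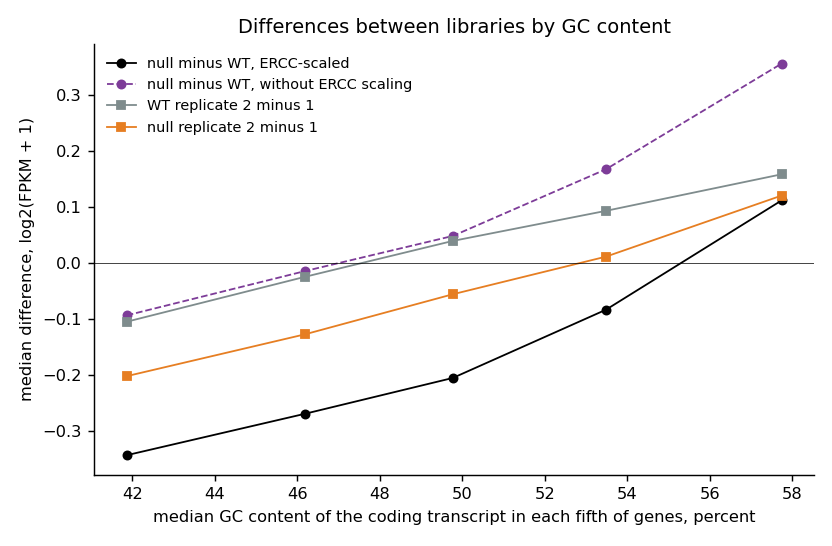
Median difference in log2(FPKM + 1) in 5 equal groups of genes by GC content of the coding transcript (x axis, median GC in percent), for null minus WT with and without ERCC scaling and for replicate 2 minus replicate 1 within each genotype. All 4 lines rise with GC content, and the ERCC-scaled null minus WT line runs from -0.34 to 0.11.

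Genes near the edited loci were counted apart, because an allele kept on a hybrid background is inherited with its neighbours. Of 37 tested genes within 5 Mb of Zar1, 3 were higher (8.11%) and 16 lower (43.2%), with a median of -0.36. Around Zar1l the counts were 4 (12.5%) and 10 (31.2%) of 32 genes, with a median of -0.24. Over all genes tested 11.2% were higher and 24.9% lower, with a median of -0.16. Linkage and an effect of the alleles cannot be told apart here.

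The effect in growing oocytes was set beside that in germinal vesicle (GV) oocytes, the fully grown stage, of the same genotypes, for the same 11232 genes in separate libraries. The GV donors were older per the sample labels and, per the study's methods, had been injected with the gonadotropin PMSG. Stage, donor age and hormone treatment therefore cannot be told apart in this comparison. At the GV stage limma called 306 genes higher (2.72%) and 4595 lower (40.9%), with ERCC factors of 0.836 and 0.697 in WT against 0.533 and 0.583 in null GV libraries. Of the 407 genes over 3-fold lower in growing oocytes 310 (76.2%, and 6.75% of the GV list) were called lower at the GV stage, and 7 were called higher. Of the 113 over 3-fold higher 36 (31.9%, and 11.8% of the GV list) were called higher and 4 were called lower. The interaction test of the effect between the stages passed in 1632 genes (14.5%), among them 141 of the 407 and 69 of the 113, and in 816 genes without null replicate 2 and 1036 without WT replicate 1. It passed in 717 without the ERCC scaling. The genes over 3-fold apart and those named by size were picked on the growing libraries, which also enter the interaction test. That choice favours a growing effect larger than the GV effect. Pnpla3 remained lower at the GV stage (log2 fold change -3.22, adjusted p = 7.73e-05) and Krt8 remained higher (2.29, adjusted p = 1.83e-04), both by less than in growing oocytes (adjusted p of the interaction 0.00184 and 0.0199). Slc12a8 fell at both stages (GV log2 fold change -3.03, interaction adjusted p = 0.1301) and Tbpl1 rose at both (GV 1.68, interaction adjusted p = 0.259).

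Other genes were called at one stage or in opposite directions. Il17b, which fell in growing oocytes, had 64.2 and 54.7 FPKM in WT and 69.2 and 63.9 FPKM in null GV oocytes (adjusted p = 0.374, interaction adjusted p = 4.51e-07). Srgn turned round, with 2.71 and 1.67 FPKM in WT and 18.2 and 24.97 FPKM in null GV oocytes (adjusted p = 1.53e-05, interaction adjusted p = 1.85e-06). Of the 31 genes named by size or targeted, 23 were called in the same direction at both stages and 26 had an effect that differed between the stages. The count of 26 was favoured by the choice of these genes for their size in growing oocytes.

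**Figure D5:**
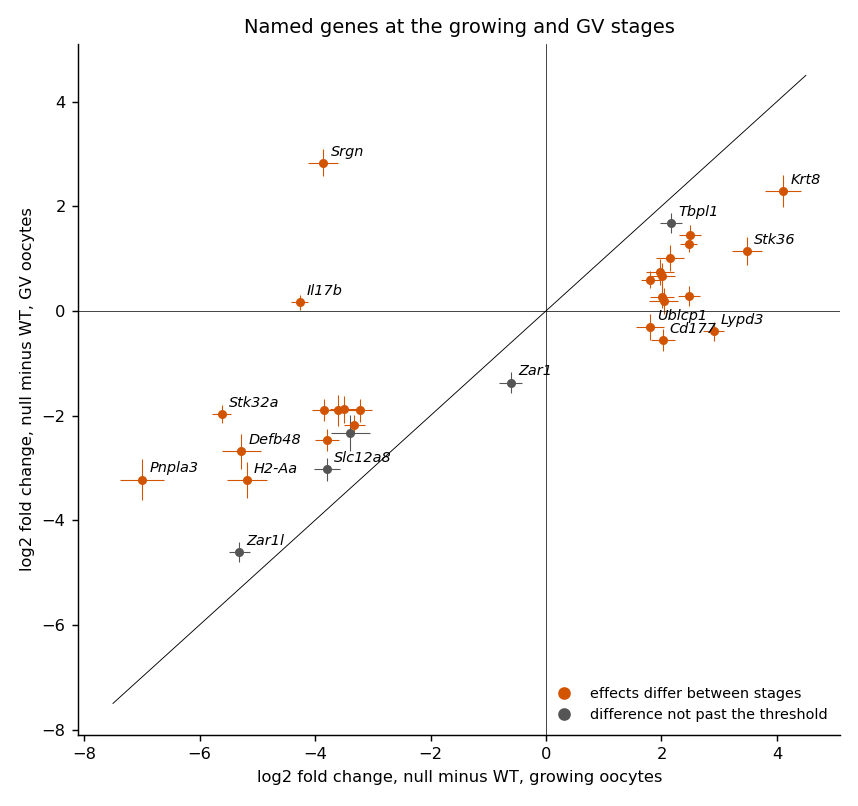
Log2 fold change (null minus WT, log2(FPKM + 1) scale) in growing oocytes (x axis) and in GV oocytes (y axis) for Zar1, Zar1l and the other genes named by size, with bars of 1 SE, coloured by whether the effect differs between the stages by the limma interaction test. Srgn and Il17b lie off the line of equal effects, lower in growing oocytes and at or above 0 in GV oocytes.

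Mir and Snor genes were far less steady than the other genes. Of the 64, 36 differed over 3-fold between the WT replicates and 29 between the null replicates. The test called 4 higher and 5 lower, and 18 were over 3-fold higher and 27 lower. Smart-seq2 primes on poly(A) and these precursors are short, so their FPKM values are not a measure of mature small RNA. The largest differences with separated libraries were between a group at or near 0 and a group with a signal. Both WT libraries listed Mir3064 at 0, and it had 367 and 271 FPKM in null libraries. The WT libraries of Mir744 were listed at 0, and it had 41.6 and 30.7 FPKM in null libraries. Mir719 went the other way, with 127 and 171 FPKM in WT and 0.00176 and 0.00162 FPKM in null libraries. The mature sequences of these 3 microRNAs (RefSeq, GRCm38.p6) are shown with the seed, bases 2 to 8, in capitals, since the seed sets which mRNAs a microRNA could bind.
mmu-miR-3064-3p: uGCCACACugcaacaccuuaca
mmu-miR-3064-5p: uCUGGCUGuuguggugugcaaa
mmu-miR-719: aUCUCGGCuacagaaaaauguu
mmu-miR-744-3p: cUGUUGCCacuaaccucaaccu
mmu-miR-744-5p: uGCGGGGCuagggcuaacagca
No seed was shared between these sequences. Several precursors lie within other genes, and none of those host genes passed the test. Map2k4, the kinase gene that holds Mir744, had a mean of 71.7 FPKM in WT and 58.8 FPKM in null libraries (adjusted p = 0.193), and Nupl1, which holds Mir719, had 25.3 and 22.9 FPKM (adjusted p = 0.611). Of the small nucleolar RNAs, Snord4a had 320.2 and 265 FPKM in WT, with both null libraries listed at 0, while its host Rpl23a had means of 569 and 574 FPKM. For Snora68 the WT libraries were listed at 0, and it had 45.5 and 67.4 FPKM in null libraries. Snora47 and Snora30 were lower and Mir1893 higher, with replicates that differed widely (367 and 45.3 against 15.5 and 32.96 FPKM for Snora47, 253 and 29.96 against 0 and 22.8 FPKM for Snora30 and 0 and 0.011 against 49.8 and 577 FPKM for Mir1893, WT first).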

How the data were processed

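RNA of 10 oocytes per library was copied by Smart-seq2 and sequenced as paired ends, with 2 libraries in each of 6 groups (WT and Zar1/2-null, growing, GV and ovulated). The authors mapped reads to mm9 with TopHat2 2.1.1 and computed FPKM with Cufflinks 2.2.1, and the deposited values are FPKM multiplied by an ERCC factor. Read counts were not used here, and the counting error behind single values is unknown. An exact 0 can be a failed estimate. The factors and the depth per library (10400000 to 13000000 fragments in growing oocytes) were recovered from the steps of the values.

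Differences in log2(FPKM + 1) were tested with limma 3.58.1 (R 4.3.3), 1 term per group over 12 libraries, with an intensity trend and Benjamini-Hochberg adjustment at 0.05, and was tested on simulated data. The pseudocount of 1 FPKM understates the change of low genes. Folds are ratios of group means set to at least 1 FPKM. Differences are null minus WT. Gene types and positions came from GENCODE on mm9, and promoters and microRNAs from RefSeq on GRCm38.p6.

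The members and gene lists were chosen with earlier results of these data known. Genes named were the targeted genes, the 15 with the largest log2 fold change in each direction (protein-coding, called, at least 10 FPKM in the higher group, libraries not overlapping), up to 3 called members per list and direction by the same criteria (up to 2 of the highest members where none passed), 15 oocyte and reference genes, the 10 highest WT genes, and 4 Mir or Snor genes in each direction. Other list members are named only to complete a count, after their values were seen. Lists were described by counts and medians, with no set test. Some list members and 1 host gene are not reported here.

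Alternatives were no ERCC scaling, median scaling, a pseudocount and floor of 0.1 FPKM, a mean of at least 5 FPKM, no filter, the 4 growing libraries alone, a replicate block, no trend, removal of Mir and Snor genes and leaving out each library. A GC correction was chosen after seeing the data. The ovulated libraries entered only the estimate of spread.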

Additional observations from a re-analysis of the deposited data

Results flagged for a closer look

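Of the genes named by size, 8 had a knockout effect that differed between growing and GV oocytes by the limma interaction test and were not called in the same direction at the GV stage. They had been picked for a large effect in the same growing libraries, which favours such a difference. The differences below are the growing effect minus the GV effect on the log2(FPKM + 1) scale. Lypd3 rose in growing oocytes and had a GV log2 fold change of -0.39, a difference of 3.29 (adjusted p = 4.06e-05). Cd177 rose in growing oocytes and was called lower at the GV stage (-0.55), a difference of 2.57 (adjusted p = 6.02e-04). The difference was 2.19 for Ifi27l2a (adjusted p = 8.69e-04), 2.1 for Ublcp1 (adjusted p = 0.00364), 1.86 for 4930550L24Rik (adjusted p = 0.00709) and 1.75 for Snapc2 (adjusted p = 0.00395). None of these 4 was called at the GV stage. Il17b fell in growing oocytes alone of the 2 stages, a difference of -4.43 (adjusted p = 4.51e-07). Srgn fell in growing oocytes and rose at the GV stage (2.83), a difference of -6.68 (adjusted p = 1.85e-06). The GV libraries of Il17b were at 64.2 and 54.7 FPKM in WT and 69.2 and 63.9 FPKM in null oocytes, and those of Srgn at 2.71 and 1.67 FPKM and 18.2 and 24.97 FPKM.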

How the results depend on the processing

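The counts moved with the scaling, the pseudocount or floor, the level of the genes kept and the libraries used. Without the ERCC scaling 1429 genes were called lower, 213 were over 3-fold higher, the median log2 fold change was 0.0863 and the effect differed between growing and GV oocytes in 717 genes. With median scaling these were 1410, 205, 0.0655 and 535. A pseudocount and floor of 0.1 FPKM gave 832 genes called higher, 246 and 731 over 3-fold higher and lower, and 852 with an effect that differed between stages. Keeping only means of 5 FPKM or more gave 494 called higher, 1622 called lower, 56 and 229 over 3-fold, and 634, since fewer genes were tested. With no filter the median was 0, since genes at 0 entered it. Leaving out each library in turn gave 828 to 1161 genes called higher, 1735 to 2559 called lower and 816 to 1666 with an effect that differed, the lowest of each without null replicate 2. With 1 library left in a group, that library is assumed to vary like the others. The causes of the changes with scaling, pseudocount and library were not tested. With the replicate block 1318 genes were called higher, 2964 lower and 1757 differed between stages. The deviations of same-numbered libraries correlated at 0.164 in growing, -0.166 in GV and 0.103 in ovulated oocytes, so the numbers are not taken to pair the libraries, although the ERCC factor was 1 in both WT growing libraries, each the reference for the libraries of its number. With the 4 growing libraries alone 980 and 2665 were called. That fit gives no value for the difference between stages.

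No gene called among those named changed direction under any alternative run, which their choice from the same libraries favours. Of 185 named genes called, 96 passed under every alternative that could be fitted, the GC correction aside. Without the ERCC scaling 47 lost and 7 gained a call, without null replicate 2 72 lost one, and with the GC correction 23 did. Of 43 list counts in each direction, 33 lower and 26 higher counts moved over 1.5 times without the ERCC scaling. Depth is not known as counts per gene, and values near 1 FPKM rest on few fragments.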
